A study of Mus musculus with 6 samples.

Results

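The genes described here move calcium through the heart muscle cell or read its level through calmodulin kinase and calcineurin. They are 36 genes chosen by name: the calcium store of the sarcoplasmic reticulum and its release channel, the exchanger and pumps of the plasma membrane, the inositol trisphosphate receptors, store-operated and mitochondrial calcium transport, CaM kinase II, and calcineurin with its NFAT factors. Of the 36, 34 had a row of their own on the array, among 19938 genes tested. Atp2b4 and Itpr1 had none and were not analysed here. RNA came from hearts of 3 A2a-R transgenic mice and 3 wild-type littermates, 1 Affymetrix Mouse Gene 1.0 ST array per heart. All 6 mice were FVB males that had transverse aortic constriction (TAC), a surgical narrowing of the aorta that loads the left ventricle with pressure, at 8 weeks of age, and hearts were taken after 14 weeks. The transgene over-expressed the adenosine A2a receptor in a cardiac-specific and inducible manner. The labels name neither the promoter nor the time of induction, and the receptor's own transcript and hearts without TAC were not analysed here.

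In each heartbeat calcium enters through the plasma membrane and opens ryanodine receptors, which release stored calcium from the sarcoplasmic reticulum to the myofilaments. The pump SERCA2 then returns it to the store, under the brake of phospholamban, and the sodium-calcium exchanger expels the rest. Phosphorylation of phospholamban by the cyclic AMP-dependent kinase lifts that brake. Sustained calcium load activates CaM kinase II and the phosphatase calcineurin, which dephosphorylates NFAT factors so that they enter the nucleus; both enzymes are known as drivers of pathological cardiac hypertrophy.

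The arrays were alike in level, with medians of 6.83 to 6.89 in transgenic and 6.83 to 6.88 in wild-type hearts on the log2 scale, and upper quartiles of 8.39 in each transgenic heart and 8.42 to 8.44 in wild-type hearts. The 6 ventricular cardiomyocyte markers that were checked, among them Myh6 and Actc1, lay between 13.33 and 14.31 in every heart, and their summed linear signal was 86329 to 89413 in transgenic and 87170 to 90231 in wild-type hearts. All 7 macrophage markers were higher in the transgenic hearts without overlap (background 7.79% of all tested genes), with summed linear signals of 5675 to 6228 against 4131 to 4663. The margin was thinnest for Adgre1, between 7.90 in a transgenic and 7.89 in a wild-type heart. The 5 atrial markers summed to 5918 to 8924 in transgenic and 11409 to 18917 in wild-type hearts. Nppa, which differed by -1.18, carried that gap, since the sums without it were 1648 to 2843 and 1531 to 3644 and overlapped. All 5 atrial markers had a log2 difference below 0, where 53.4% of all tested genes lay. Myl4, Myl7, Bmp10 and Mybphl lay between -0.24 and -0.14, and the groups of each overlapped. The 4 smooth muscle markers summed to 3245 to 3783 in transgenic and 2176 to 2466 in wild-type hearts. Acta2, which differed by 0.73, carried that gap, since the other 3 summed to 479 to 489 and 477 to 501 and overlapped. The part of these cell types in the values below was not tested, and in whole hearts fewer cells of a type and less RNA per cell cannot be told apart.

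None of the 34 calcium and calcineurin genes passed an adjusted p of 0.05 in limma, where 0.993% of all tested genes (0.959% of rows) did, 0.547% higher and 0.446% lower in transgenic hearts. That balance turned without the dimmest 40% of rows, where 184 rows were higher and 309 lower and 32 of the 34 genes were tested. At an unadjusted p under 0.05 there were 9 of 34 (26.5%), against a background of 14.6% of all tested genes. Of these 9, 7 were lower in the transgenic hearts (Rcan1, Casq1, Camk2d, Nfatc2, Hrc, Mcu and S100a1; background 8.26%) and 2 were higher (Ryr2 and Itpr2; background 6.32%). This split ran from 4 lower and 2 higher without transgenic heart 3 to 8 lower and 2 higher with array weights. It was 5 lower and 3 higher after a further quantile normalization. The values of the transgenic and wild-type hearts did not overlap in 10 of 34 genes (29.4%), where 20.2% of all tested genes did not overlap. They were 6 lower genes (background 12.4%) and 4 higher genes (background 7.79%). The 10 genes include 7 of the 9 above, without Casq1 and Hrc, and also Nfatc3, Slc8a1 and Camk2a.

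Differences were small. Of the 34 genes, 24 had a log2 difference (transgenic minus wild type) below 0, 9 above it, and Fkbp1b had equal means, while 53.4% of all tested genes lay below 0. The median log2 difference was -0.04 with quartiles of -0.11 and 0.01, and that of all tested genes was -0.01 with quartiles of -0.08 and 0.06. The mean deviation of the 34 genes from their 6-array means was -0.03, -0.01 and -0.06 in transgenic hearts 1 to 3, against 0.02, 0.02 and 0.06 in wild-type hearts 1 to 3. Transgenic heart 3 held the lowest of the 6 values in 12 of the 34 genes and the highest in 1. After a further quantile normalization of the arrays the balance was 21 lower and 13 higher, with a median of -0.03. The share of 53.4% covers genes of all levels. The 34 genes averaged 9.65 to 9.76 in a heart, where the array medians were 6.83 to 6.89. A share among genes of like level was not computed.

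**Figure D1:**
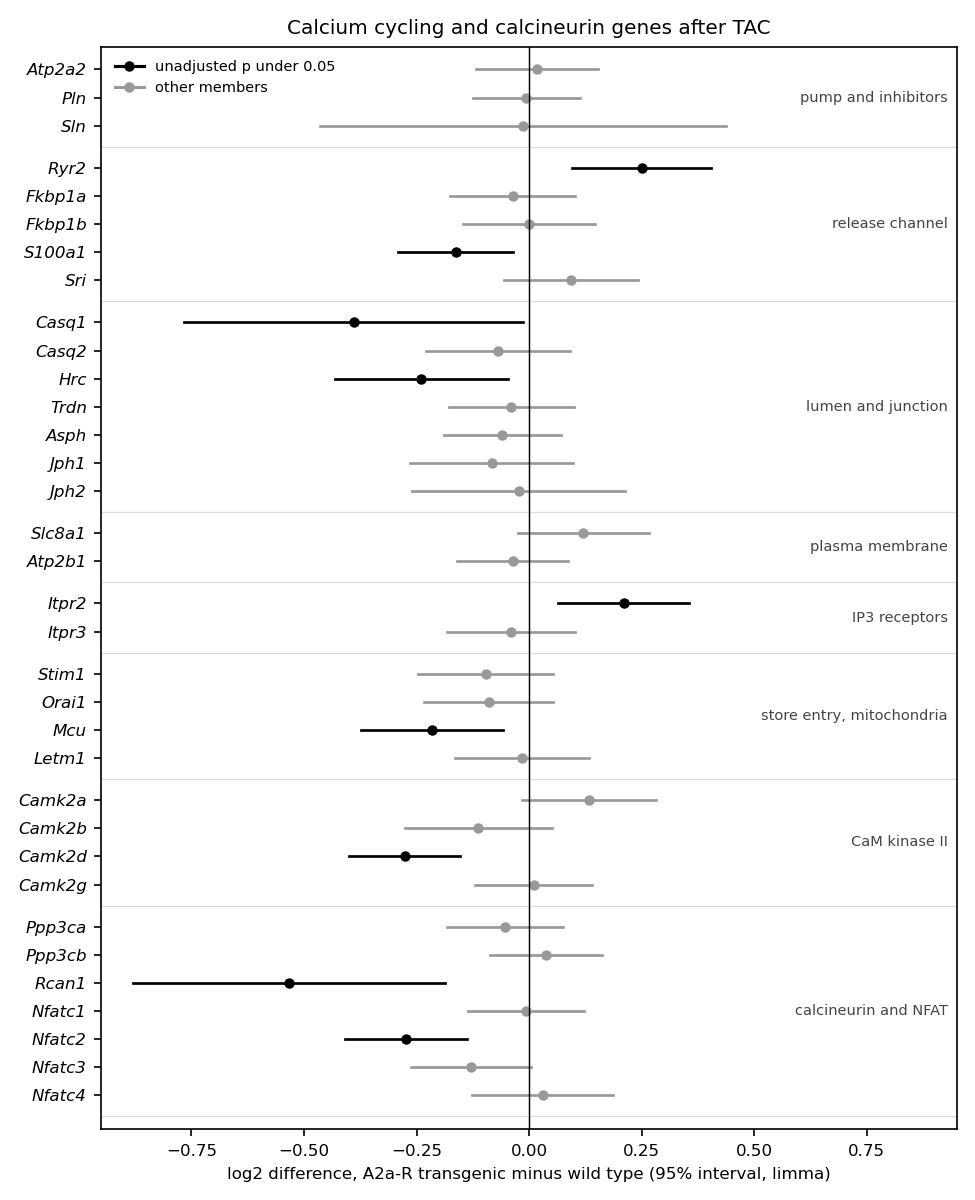
Log2 difference (x axis, transgenic minus wild type) of each of the 34 measured genes, grouped by role; points are means of 3 against 3 hearts and lines are 95% intervals from limma. Black marks the 9 genes at an unadjusted p under 0.05, of which 7 lie left of 0, and Rcan1 lies farthest left at -0.53.

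**Figure D2:**
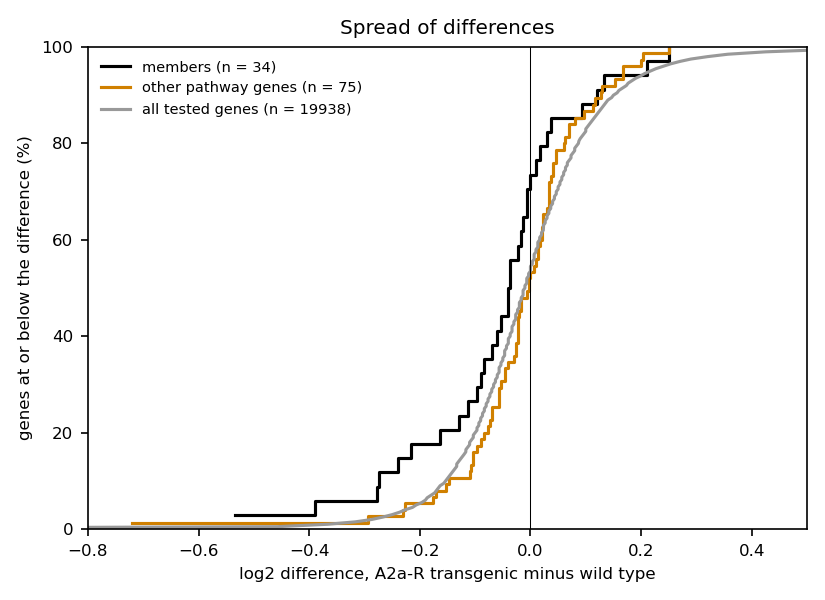
Share of genes (y axis, percent) at or below a given log2 difference (x axis, transgenic minus wild type) for the 34 calcium and calcineurin genes, 75 other genes of the pathway and all 19938 tested genes. The line of the 34 genes lies above the grey line over most differences below 0, with medians of -0.04 and -0.01.

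The calcium pump and its inhibitors showed no difference beyond the spread between hearts. Atp2a2, which encodes SERCA2, was at 13.92, 13.98 and 13.90 in transgenic hearts 1 to 3, against 13.85, 13.95 and 13.95 in wild-type hearts 1 to 3. Its log2 difference of 0.02 had a 95% interval of -0.12 to 0.15, and the groups overlapped. Pln, which encodes phospholamban, was at 13.93, 13.94 and 13.93 in transgenic hearts, against 13.95, 13.93 and 13.94 in wild-type hearts. Its 6 values spanned 13.93 to 13.95, and the 95% interval of the difference of -0.01 ran from -0.13 to 0.11. Both rows lie near the top of the array's range, whose highest value was 14.69, and array values are known to be compressed there.

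The log2 signal of Pln minus that of Atp2a2 within a heart was 0.01, -0.04 and 0.03 in transgenic hearts and 0.10, -0.02 and -0.01 in wild-type hearts. The genotypes differed by -0.02 in this measure, less than its SD of 0.04 in transgenic and 0.07 in wild-type hearts (n = 3 each). The measure was added after the data had been seen, and it has no test. The mean difference of the 2 rows in signal is not a ratio of molecules, since each row has probes of its own.

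Sln, which encodes sarcolipin, a pump inhibitor found mainly in atria in the mouse heart, varied among hearts more than between genotypes. It was at 6.91, 6.16 and 6.56 in transgenic hearts, against 6.63, 6.25 and 6.79 in wild-type hearts. The lowest values were those of heart 2 in each genotype, and the log2 difference of -0.01 had a wide 95% interval of -0.46 to 0.44. The atrial light chain Myl7 was likewise lowest in heart 2 of each genotype, at 7.62 in the transgenic and 7.53 in the wild-type heart, and it reached 8.30 in transgenic heart 1 and 8.83 in wild-type heart 3. How much atrial tissue each sample held was not tested.

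The release channel and its partners went in different directions. Ryr2, the cardiac ryanodine receptor, was at 12.47, 12.60 and 12.48 in transgenic hearts, against 12.18, 12.33 and 12.29 in wild-type hearts. Every transgenic heart was above every wild-type heart, with a log2 difference of 0.25 ± 0.07 (SE), or 1.19-fold, at an unadjusted p of 0.00562 and a limma adjusted p of 0.149. With a trended and robust variance prior the limma adjusted p was 0.032, and over all 14 alternatives it ran from 0.032 to 0.274. S100a1, a calcium sensor that binds the ryanodine receptor and the pump, was at 13.12, 13.11 and 13.10 in transgenic hearts, against 13.33, 13.26 and 13.23 in wild-type hearts. The groups did not overlap, and the log2 difference was -0.16 ± 0.06 (SE, limma adjusted p = 0.235). After a further quantile normalization the S100a1 difference was -0.12 at an unadjusted limma p of 0.0588. Over all 14 alternatives its limma adjusted p ran from 0.0549 to 0.408. Like those of Atp2a2 and Pln, the S100a1 row lies near the top of the array's range.

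The other partners of the release channel did not stand apart. Fkbp1a and Fkbp1b encode the FK506-binding proteins that bind and stabilise ryanodine receptors, and Fkbp1b, the form tied to the cardiac channel, had a mean of 6.12 in both genotypes (SD 0.07 in transgenic and 0.06 in wild-type hearts, n = 3 each). Fkbp1a differed by -0.04 ± 0.06 (SE). Sri, which encodes sorcin, a calcium-binding protein that dampens release, differed by 0.09 ± 0.06 (SE), and its groups overlapped. Whether Ryr2 differed from its partners in its response was not tested.

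All 7 genes of the store lumen and of its junction with the plasma membrane had a difference below 0, where 53.4% of all tested genes lay, and none passed the adjusted threshold in limma. At an unadjusted p under 0.05 there were 2 of 7, against a background of 14.6%. The direction was not firm for Trdn, at 0.05 as the mean of its rows, or for Jph2, at 0.01 after a further quantile normalization and from -0.13 without wild-type heart 1 to 0.07 without wild-type heart 3. Casq1, the calsequestrin that buffers stored calcium in skeletal muscle, was at 10.09, 10.27 and 9.85 in transgenic hearts, against 10.15, 10.44 and 10.79 in wild-type hearts. The groups overlapped, since transgenic heart 2 was above wild-type heart 1. Its log2 difference was -0.39 ± 0.16 (SE, limma adjusted p = 0.324), and -0.23 without wild-type heart 3, which held its highest value. Skeletal muscle markers summed to linear signals of 557 to 626 in transgenic and 542 to 604 in wild-type hearts, so the sums overlapped. Of these 7 markers, 5 had a log2 difference above 0 and 2 below. Only Myh1 did not overlap between genotypes (1 of 7, where 20.2% of all tested genes did not). It was higher in transgenic hearts, at 0.19 ± 0.06 (SE, limma adjusted p = 0.203).

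Casq2, the cardiac calsequestrin, was at 11.20, 11.36 and 11.15 in transgenic hearts, against 11.27, 11.31 and 11.34 in wild-type hearts. The groups overlapped, at a log2 difference of -0.07 with a 95% interval of -0.23 to 0.09. Hrc, the histidine-rich calcium-binding protein of the lumen, was at 10.45, 10.65 and 10.48 in transgenic hearts, against 10.63, 10.86 and 10.81 in wild-type hearts. Its groups overlapped by transgenic heart 2, just above wild-type heart 1, and the log2 difference was -0.24 ± 0.08 (SE, limma adjusted p = 0.245). In both Casq2 and Hrc, heart 2 was the highest transgenic heart.

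Among the proteins that hold the junction together, Trdn encodes triadin, which anchors calsequestrin to the release channel, and Asph includes the junctional protein junctin. Trdn differed by -0.04 ± 0.06 and Asph by -0.06 ± 0.06 (SE). The junctophilins, which tether the reticulum to the plasma membrane, differed by -0.08 ± 0.08 (Jph1) and -0.02 ± 0.10 (Jph2). These 4 genes had overlapping groups.

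Of these genes, 4 had several rows on the array, and the rows did not always give the same picture. The 2 rows of Jph1 had means of 8.86 and 8.39, and the dimmer row, named after its values were seen, was at 8.27, 8.16 and 8.35 in transgenic hearts, against 8.45, 8.58 and 8.50 in wild-type hearts. That row did not overlap between genotypes, with a Jph1 log2 difference of -0.25 ± 0.07 (SE, limma adjusted p = 0.159). The dimmer row of Jph2 differed by -0.16 ± 0.07 (SE, limma adjusted p = 0.363), and its groups overlapped. The 19 rows of Trdn ranged in mean value from 3.26 to 11.95, and their log2 differences ran from -0.11 to 0.28, with 11 above and 8 below 0. A Trdn row with a mean of 9.67 differed by 0.28 ± 0.11 (SE, limma adjusted p = 0.269), opposite in sign to the brightest row at -0.04. None of the 19 Trdn rows had groups without overlap, and none passed the adjusted threshold in limma, while 1 had an unadjusted p under 0.05. The rows of one gene share the same 6 hearts and are not replicates, and which exons they cover was not analysed here.

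**Figure D3:**
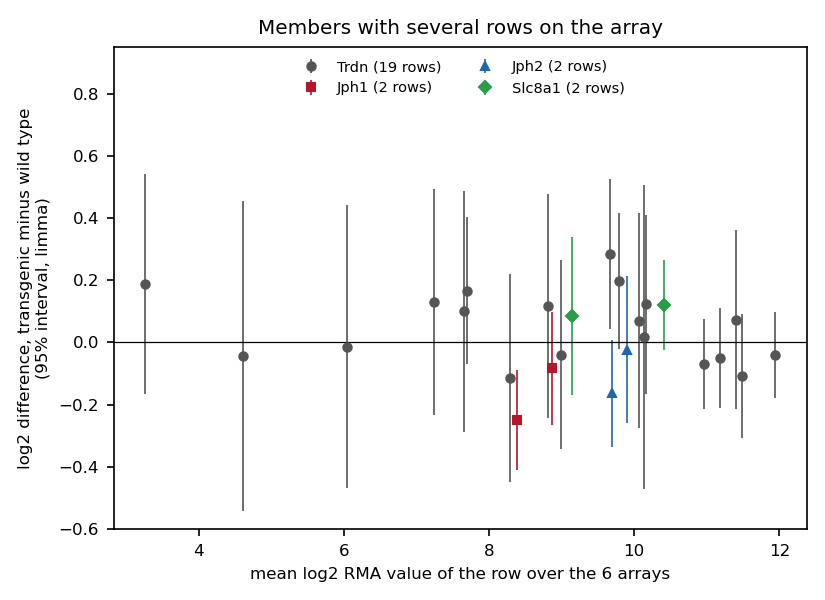
Log2 difference (y axis, transgenic minus wild type, with 95% intervals from limma) against the mean log2 value (x axis) of every row of the 4 genes with more than 1 row. The 19 rows of Trdn scatter on both sides of 0, between -0.11 and 0.28, and both rows of Jph1 lie below 0.

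At the plasma membrane, Slc8a1, the sodium-calcium exchanger NCX1, was at 10.48, 10.51 and 10.41 in transgenic hearts, against 10.38, 10.26 and 10.40 in wild-type hearts. The groups were separated by the margin between 10.41 and 10.40, at a log2 difference of 0.12 ± 0.06 (SE, limma adjusted p = 0.433). Its dimmer row differed by 0.09 ± 0.11 (SE) and overlapped. Atp2b1, a calcium pump of the plasma membrane, lay between 10.08 and 10.09 in transgenic hearts and 10.08 and 10.15 in wild-type hearts.

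The inositol trisphosphate receptors are release channels of the reticulum and the nuclear envelope that open on signals from G protein-coupled receptors. Itpr2, the main form in cardiomyocytes, was at 9.26, 9.37 and 9.20 in transgenic hearts, against 9.05, 9.05 and 9.10 in wild-type hearts. All transgenic hearts were above all wild-type hearts, with a log2 difference of 0.21 ± 0.06 (SE), or 1.16-fold, and a limma adjusted p of 0.189. Itpr3 differed by -0.04 ± 0.06 (SE), and its groups overlapped.

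The 4 genes of store-operated entry and of mitochondrial calcium transport all had a difference below 0 (53.4% of all tested genes did), and none passed the adjusted threshold in limma. At an unadjusted p under 0.05 there was 1 of 4, against a background of 14.6%. Mcu, the pore of the mitochondrial calcium uniporter, was at 8.58, 8.61 and 8.49 in transgenic hearts, against 8.70, 8.75 and 8.88 in wild-type hearts. The groups did not overlap, and the log2 difference was -0.22 ± 0.07 (SE, limma adjusted p = 0.206). Stim1, the sensor of store calcium, differed by -0.10 ± 0.07 (SE), and Orai1, the channel that it opens, by -0.09 ± 0.06 (SE). Letm1, an ion exchanger of the inner mitochondrial membrane, differed by -0.02 ± 0.06 (SE) and took the opposite sign under 3 alternatives, with values up to 0.03.

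**Figure D4:**
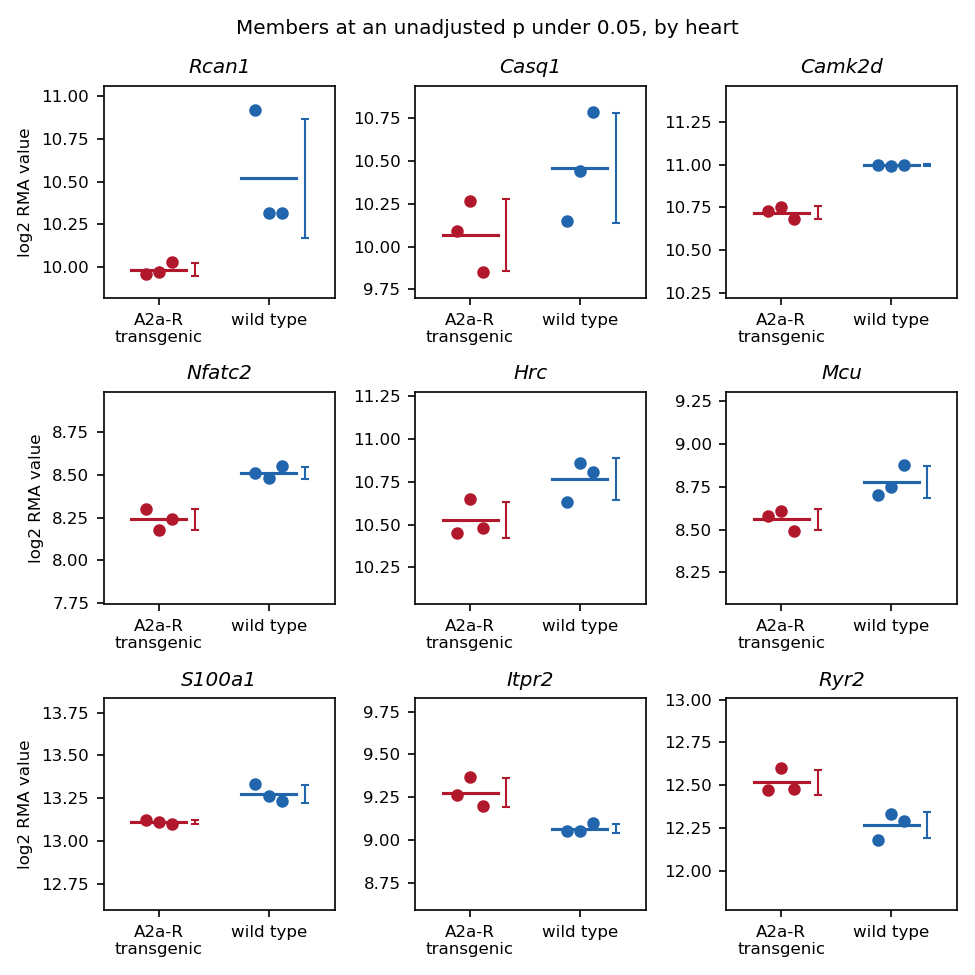
Log2 RMA value (y axis, the same span in each panel) of the 9 genes at an unadjusted p under 0.05, ordered by their difference; each point is 1 heart, horizontal bars are group means and the error bars beside them are SD (n = 3). Camk2d and Nfatc2 show narrow groups apart from each other, Rcan1 has 1 wild-type heart at 10.92 above the others, and Casq1 overlaps.

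Of the 4 CaM kinase II genes, Camk2d, the delta form that predominates in heart, had the smallest p of all the genes described here. It was at 10.73, 10.75 and 10.68 in transgenic hearts, against 11.00, 10.99 and 11.00 in wild-type hearts. The groups did not overlap and were each narrow, with a log2 difference of -0.28 ± 0.05 (SE) and a fold of 0.83 (unadjusted p = 0.000805, limma adjusted p = 0.0651). The limma adjusted p was below 0.05 under 3 of 14 alternatives: 0.0196 without the dimmest 40% of rows, 0.00674 with a trended and robust prior and 0.0441 with array weights. Over all 14 it ran from 0.00674 to 0.203, while the log2 difference stayed between -0.29 and -0.26. Camk2a, better known from neurons, was at 7.55, 7.58 and 7.56 in transgenic hearts, against 7.32, 7.49 and 7.48 in wild-type hearts. It did not overlap in the opposite direction, at 0.13 ± 0.06 (SE, limma adjusted p = 0.389). Camk2b differed by -0.11 ± 0.07 and Camk2g by 0.01 ± 0.06 (SE), and whether the 4 genes differ from one another in their response was not tested.

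The genes of calcineurin and NFAT held Rcan1, which had the largest difference of the 34 genes with all 6 hearts, and the NFAT factor Nfatc2. Ppp3ca, the alpha catalytic subunit of calcineurin, was at 9.59, 9.63 and 9.63 in transgenic hearts, against 9.67, 9.62 and 9.72 in wild-type hearts. Ppp3cb, the beta catalytic subunit, was at 10.32, 10.38 and 10.30 in transgenic hearts, against 10.29, 10.31 and 10.29 in wild-type hearts. Both genes overlapped between genotypes, with 95% intervals of -0.18 to 0.08 for Ppp3ca and -0.09 to 0.16 for Ppp3cb.

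Rcan1 encodes regulator of calcineurin, which binds and inhibits the phosphatase, and its shorter transcript, which starts inside the gene, is a known target of calcineurin and NFAT and widely used as a readout of that pathway. Rcan1 was at 9.96, 9.97 and 10.03 in transgenic hearts, against 10.92, 10.32 and 10.32 in wild-type hearts. All wild-type hearts were above all transgenic hearts, and wild-type heart 1 stood 0.60 above both other wild-type hearts. The log2 difference was -0.53 ± 0.15 (SE), a fold of 0.69, with an unadjusted p of 0.00739 and a limma adjusted p of 0.164. Without wild-type heart 1 the log2 difference was -0.33 ± 0.06 (SE) with a limma adjusted p of 0.0917, and Casq1 then had the largest difference of the 34 genes at -0.55. With array weights Casq1 was also ahead, at -0.45 against -0.44 for Rcan1. Over the 14 alternatives the limma adjusted p ran from 0.0837 to 0.308. Wild-type heart 1 also had the highest value of Nppa, 14.01, and any link to its Rcan1 value was not tested.

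NFAT factors carry the calcineurin signal to the nucleus. Nfatc2 was at 8.30, 8.18 and 8.24 in transgenic hearts, against 8.51, 8.48 and 8.55 in wild-type hearts. The groups did not overlap, at a log2 difference of -0.27 ± 0.06 (SE), a fold of 0.83 (unadjusted p = 0.00155, limma adjusted p = 0.0877). The limma adjusted p was 0.0306 without the dimmest 40% of rows and 0.0262 with a trended and robust prior, in a range of 0.0262 to 0.219 over 14 alternatives. Nfatc2 is also known from lymphocytes, whose 5 measured markers went both ways. The B cell marker Cd79a differed by -0.35 ± 0.09 without overlap (SE, limma adjusted p = 0.137), the T cell marker Cd3g by 0.28 ± 0.11 with overlap, and the sums of the 5 were 341 to 392 in transgenic and 340 to 367 in wild-type hearts. Their part in the value of Nfatc2 was not tested. Nfatc3 was at 9.13, 9.11 and 9.10 in transgenic hearts, against 9.24, 9.31 and 9.18 in wild-type hearts, without overlap and with a log2 difference of -0.13 ± 0.06 (SE, limma adjusted p = 0.349). Nfatc1 differed by -0.01 ± 0.06 and Nfatc4 by 0.03 ± 0.07 (SE), and both overlapped.

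Promoter windows are shown for Camk2d and Nfatc2, with the smallest p, and for Rcan1, with the largest difference of the 34 genes over all hearts, so that the letters around their start sites can be read beside the values. Each window runs from 250 bases before to 50 bases after a RefSeq start in build GRCm38.p6, on the strand of the gene, and 26 of the 36 genes had such a window. Capitals mark GGAAA, the core that NFAT factors bind, on either strand (TTTCC on the opposite one), and TGACGTCA, the cyclic AMP response element, which reads the same on both strands.
Rcan1, upstream start (chr16:92466120-92466419, minus strand): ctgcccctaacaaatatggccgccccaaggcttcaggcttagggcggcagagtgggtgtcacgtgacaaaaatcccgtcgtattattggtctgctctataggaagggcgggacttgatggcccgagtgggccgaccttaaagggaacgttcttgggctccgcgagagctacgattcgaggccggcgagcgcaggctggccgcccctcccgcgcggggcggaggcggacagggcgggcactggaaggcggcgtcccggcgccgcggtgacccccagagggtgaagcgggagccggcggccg
Rcan1, internal start (chr16:92400029-92400328, minus strand): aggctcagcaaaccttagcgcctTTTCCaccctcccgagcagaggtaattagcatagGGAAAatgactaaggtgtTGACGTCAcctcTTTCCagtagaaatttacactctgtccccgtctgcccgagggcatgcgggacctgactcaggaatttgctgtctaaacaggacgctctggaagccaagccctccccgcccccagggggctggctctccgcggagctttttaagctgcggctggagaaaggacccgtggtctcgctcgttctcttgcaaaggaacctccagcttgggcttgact
Nfatc2, upstream start (chr2:168601608-168601907, minus strand): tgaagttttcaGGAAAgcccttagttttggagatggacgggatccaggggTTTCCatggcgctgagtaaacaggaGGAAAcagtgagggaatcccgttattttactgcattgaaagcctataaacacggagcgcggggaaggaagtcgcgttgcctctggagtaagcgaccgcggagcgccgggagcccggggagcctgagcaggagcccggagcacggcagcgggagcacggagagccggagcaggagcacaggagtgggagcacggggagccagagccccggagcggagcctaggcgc
Nfatc2, downstream start (chr2:168590316-168590615, minus strand): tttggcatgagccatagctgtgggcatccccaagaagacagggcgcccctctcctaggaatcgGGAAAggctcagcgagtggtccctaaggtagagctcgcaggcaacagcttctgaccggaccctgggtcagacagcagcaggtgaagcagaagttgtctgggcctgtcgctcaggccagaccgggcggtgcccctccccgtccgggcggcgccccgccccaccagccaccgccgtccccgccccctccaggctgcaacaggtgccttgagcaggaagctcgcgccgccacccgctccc
Camk2d (chr3:126596701-126597000, plus strand): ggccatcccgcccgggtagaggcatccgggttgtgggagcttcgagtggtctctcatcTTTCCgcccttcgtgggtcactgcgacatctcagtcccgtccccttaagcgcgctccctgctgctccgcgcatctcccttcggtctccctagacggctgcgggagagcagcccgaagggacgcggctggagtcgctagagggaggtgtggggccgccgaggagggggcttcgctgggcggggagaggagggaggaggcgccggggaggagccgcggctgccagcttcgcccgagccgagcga

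The window at the internal start of Rcan1 held 3 matches to GGAAA and 1 to TGACGTCA, and the matches did not overlap. The window at its upstream start held 0 of either, and the array row of Rcan1 was not split by start, so transcripts from the 2 starts were not told apart here. The upstream window of Nfatc2 also held 3 matches to GGAAA, its downstream window 1 and that of Camk2d 1. The annotated gene of Camk2d begins upstream of its window, at position 126595487 of chromosome 3, so that window shows a start inside the gene. Among all 32851 windows of the table, 61.3% held at least 1 match to GGAAA, 9.42% held 3 or more, and 1.79% held TGACGTCA. Of the 31 windows of the calcium and calcineurin genes, 18 held GGAAA, 5 held 3 or more matches and 1 held TGACGTCA. A match describes the letters of these windows and no binding was measured.

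Of 81 other genes of the same pathway, 75 had a row of their own, and none passed the adjusted threshold in limma. At an unadjusted p under 0.05 there were 8, with 3 higher and 5 lower, which is 10.7% against the background of 14.6%. The groups did not overlap in 14 of the 75 genes (18.7%), with 4 higher and 10 lower, where 20.2% of all tested genes did not overlap. The median log2 difference of the 75 genes was -0.0033, against -0.01 over all tested genes. Among 18 regulators of the store and its release, 1 (5.56%, background 14.6%) had an unadjusted p under 0.05. This was Ryr3, a ryanodine receptor known mainly from other tissues. Ryr3 was at 6.26, 6.0 and 6.29 in transgenic hearts, against 7.34, 6.63 and 6.74 in wild-type hearts, without overlap. Its log2 difference was -0.72 ± 0.18 (SE, limma adjusted p = 0.119), with the opposite sign to Ryr2 and the highest value in wild-type heart 1. Next by p were Ppp1r3a, a targeting subunit of protein phosphatase 1 in striated muscle, at 0.20 ± 0.11, and Srl, the luminal protein sarcalumenin, at 0.10 ± 0.07 (SE).

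Among 21 genes of entry, extrusion and mitochondrial uptake 1 (4.76%, background 14.6%) had an unadjusted p under 0.05. This was the cation channel gene Trpc1 at -0.18 ± 0.07 (SE, limma adjusted p = 0.269). The exchanger Slc8a2 was at 0.17 ± 0.08 and Atp2c1, a calcium pump of the Golgi, at -0.11 ± 0.05 (SE). Among 16 genes of calmodulin and its kinases and targets, 4 (25%, background 14.6%) had an unadjusted p under 0.05. Of these, 3 were higher (background 6.32%) and 1 lower (background 8.26%). Hdac9, a histone deacetylase that restrains MEF2 factors and is exported from the nucleus after phosphorylation by CaM kinase, was at 8.45, 8.34 and 8.44 in transgenic hearts, against 8.65, 8.78 and 8.68 in wild-type hearts. It did not overlap, at -0.29 ± 0.06 (SE, limma adjusted p = 0.089, and 0.0244 to 0.259 over 14 alternatives). The calmodulin-dependent phosphodiesterase Pde1c was at 0.25 ± 0.08 and the calmodulin gene Calm2 at 0.20 ± 0.08 (SE).

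Among 20 regulators and partners of calcineurin 13 lay below 0 and 7 above, where 53.4% of all tested genes lay below 0. At an unadjusted p under 0.05 there were 2 (10%), both lower, against a background of 14.6%, or 8.26% for lower genes. The groups did not overlap in 5 of the 20 (25%), all lower, against a background of 20.2%, or 12.4% for lower genes. Mef2c, a transcription factor that responds to calcineurin and CaM kinase, was at 9.39, 9.44 and 9.51 in transgenic hearts, against 9.72, 9.65 and 9.66 in wild-type hearts. Myoz2, which encodes calsarcin-1, an inhibitor of calcineurin at the Z-disc, was at 12.76, 12.85 and 12.74 in transgenic hearts, against 13.05, 12.97 and 13.01 in wild-type hearts. Neither gene overlapped between genotypes, and both had a log2 difference of -0.23 ± 0.06 (SE), with limma adjusted p of 0.134 for Mef2c and 0.137 for Myoz2. Akap5, an anchoring protein that binds calcineurin and the cyclic AMP-dependent kinase, was at -0.17 ± 0.07 (SE), and its groups overlapped.

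Spread within a genotype bears on what these values can show. The SD over 3 hearts had a median of 0.05 in transgenic and 0.06 in wild-type hearts over the 34 genes, and was largest for Sln in transgenic hearts (0.38) and for Rcan1 in wild-type hearts (0.35). The wild-type SD was the larger in 22 genes and the transgenic SD in 12. For the 25 genes at an unadjusted p of 0.05 or above, the log2 differences lay between -0.13 and 0.13, and in 18 of them the whole 95% interval lay within 0.25 on either side of 0. Intervals that miss the threshold do not show equal expression, and 3 arrays a genotype limit the precision.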

How the data were processed

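RNA of 6 hearts was measured on 1 array each. The deposited values are log2 expression values that the authors made with RMA (background correction, quantile normalization, probe summary) and Partek, per the submitters' processing notes; their versions and settings and the genome build were not given in the sources used here. Rows were named from the platform annotation, and 21789 of 28853 rows had exactly 1 symbol and were tested. For each gene the row of highest mean was used; the identifiers of all 34 genes matched RefSeq annotation of GRCm38.p6. Transgenic minus wild type was fitted with limma 3.58.1 (R 4.3.3; lmFit and eBayes, no covariate, 4.1 prior degrees of freedom), with Benjamini-Hochberg adjustment over all tested rows.

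The genes and lists were chosen with earlier results of these data known. Of the 34 genes, values in each heart are given for those past the adjusted threshold or at an unadjusted p under 0.05. They are also given for Atp2a2, Pln, Sln, Ryr2, Slc8a1, Casq2, Camk2d, Ppp3ca, Ppp3cb and Rcan1. Camk2a, Nfatc3, the dimmer rows of Jph1 and Jph2, and the markers Cd79a, Cd3g and Myh1 were added after their values were seen. Of the other pathway genes, the 3 with the smallest p in each list are named, and the 4 given by heart (Ryr3, Hdac9, Mef2c and Myoz2) were picked after their values were seen. Fibroblast markers summed to linear signals of 11980 to 12528 in transgenic and 12514 to 13610 in wild-type hearts, and endothelial markers to 8259 to 8832 and 8731 to 9040. Each group held 3 mice, per the design text. The limma p-values set a difference against the spread between mice, which the fit draws toward a prior over all tested rows. No 2 arrays were identical. Alternatives were a replicate block, another round of quantile normalization, median centring, a filter on dim rows, a trended and robust prior, array weights, all rows, the mean of a gene's rows, a looser threshold and leaving out each array.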

Additional observations from a re-analysis of the deposited data

How the results depend on the processing

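The count of 0 calcium and calcineurin genes past the adjusted threshold was 0 with the replicate block, a further quantile normalization, median centring, all rows, the mean of a gene's rows and each array left out. It was 2 without the dimmest 40% of rows (Camk2d and Nfatc2), 3 with a trended and robust prior (these and Ryr2), 1 with array weights (Camk2d) and 2 at an adjusted p under 0.10. The other pathway genes had 1, 3 and 1 calls without dim rows, with the trended and robust prior and at 0.10, and 0 otherwise. Over all rows the count was 209 in the limma fit as described, 97 with the replicate block, 493 without dim rows, 579 with the trended and robust prior, 476 at 0.10, and 84 to 147 with 1 array left out. The split of the 209 was 113 higher and 96 lower, and it turned to 129 higher and 147 lower with arrays centred on their medians, 184 and 309 without dim rows, which leaves 32 of the 34 genes, 240 and 339 with the trended and robust prior, and 230 and 246 at 0.10. At an unadjusted p under 0.05 there were 6 to 10 of the 34 genes under all alternatives, and their median log2 difference stayed between -0.06 and -0.03. The log2 difference took the opposite sign under at least 1 alternative in 9 of the 34 genes (Atp2a2, Pln, Sln, Trdn, Jph2, Letm1, Camk2g, Nfatc1 and Nfatc4), all within 0.04 of 0 with all 6 hearts. Deviations of hearts with equal replicate numbers correlated across rows at r = 0.16, -0.01 and -0.10 for numbers 1, 2 and 3. The labels give no pairing, and these 3 values cannot exclude one. The signal of Pln minus Atp2a2 differed by -0.045 to 0.015 between genotypes under the alternatives. The cause was not tested for any of these changes.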
